A study of Mus musculus with 6 samples.

Results

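The genes described here are the Wnt ligands, their receptors and co-receptors, the proteins that release the ligands, the secreted Wnt antagonists and the R-spondin axis, in RNA-Seq of mouse lip tissue. Members were chosen by gene name: every counted gene whose symbol was Wnt, Fzd, Dkk, Sfrp or Rspo followed by a digit, together with Frzb, Wif1, Sost, Sostdc1, Lrp5, Lrp6, Ror1, Ror2, Ryk, Porcn, Wls, Notum, Lgr4, Lgr5, Lgr6, Znrf3 and Rnf43. The names matched 58 of the 26814 genes counted, and 48 of these were expressed at 1 CPM (a count scaled to library size) or more in 3 or more libraries, a filter that 15009 genes passed in all. The tissue was top lip of adult female mice on a C57BL/6J background, 3 wild type (WT) and 3 Gtf2ird1 knockout (KO), with 1 library from each mouse. The KO mice carried a constitutive targeted allele of Gtf2ird1, which encodes a DNA-binding transcription factor. Values are means ± SD over 3 mice in each group, and p-values measure the spread between these mice.

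Wnt proteins are lipid-modified signals that act over short distances. They bind frizzled receptors together with a co-receptor, either Lrp5 or Lrp6 for the branch that stabilises beta-catenin, or Ror1, Ror2 and Ryk for branches that act on cell shape and movement. Secreted antagonists hold the ligands or block the co-receptors, while R-spondins, through Lgr4, Lgr5 and Lgr6, protect the receptors from removal by the ubiquitin ligases Znrf3 and Rnf43. In skin this pathway is known for starting hair follicles, for driving their growth phase and for specifying the hair shaft.

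Total counts on genes lay between 20164081 in KO1 and 29491767 in KO2, so that 3 counts stood for 0.154 and 0.0986 CPM. By the study's methods, genotypes were typed again from tail biopsies. The targeted gene had more reads in the libraries labelled KO (166, 162 and 144 CPM) than in the WT libraries (78.2, 70.2 and 70.7 CPM). Counts per gene do not show whether the protein was lost, and the reason for the higher counts was not tested. Directions are given for libraries by their label. Gtf2ird1 overlaps Gm26340, Gm42882 and n-R5s178 on the opposite strand, and the counts do not separate a targeted from an intact allele. Markers of hair shaft and inner root sheath, dermal fibroblasts, keratinocytes and skeletal muscle were all detected, as the lip holds these tissues. In bulk tissue, fewer cells of a type and less RNA per cell cannot be told apart. The strand setting used in counting is not given in the sources used here. How a gene on the opposite strand affected the count of a member is therefore not known. Overlaps were taken over whole gene spans, so they need not touch a counted exon. Such overlaps are given with a gene below, and besides those they concern Wnt5a (Gm2670), Wnt5b (Fbxl14), Wnt6 (Gm29539), Fzd3 (Gm9086), Fzd5 (Gm38058), Fzd6 (Gm26704), Ror1 (Gm12706), Wls (Gm23941), Sfrp2 (Gm26771), Rspo1 (Gm12930), Rspo3 (Gm48159), Rspo4 (Rspo4os) and Rnf43 (Gm25968).

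Among the ligands, Wnt4 had the highest level per kilobase in WT lip, with 24.2 ± 3.96 RPKM (reads scaled to library size and exon length, SD, n = 3). Wnt3 (12.2 RPKM), Wnt10a (10.4 RPKM), Wnt7b (8.58 RPKM), Wnt5a (8.17 RPKM) and Wnt11 (8.11 RPKM) followed, and the SDs of these neighbours overlapped. Within every WT library Wnt3 was above Wnt10a and Wnt10a above Wnt7b, while the order of Wnt7b, Wnt5a and Wnt11 varied. Wnt4 and Wnt3 signal in epidermis and hair follicle, while Wnt10a is required for hair, teeth and sweat glands. The leading receptors were Fzd1 (43.0 ± 4.03 RPKM) and Fzd7 (36.0 ± 5.84 RPKM), ahead of Fzd6 (19.3 ± 1.21 RPKM). Fzd1 was above Fzd7 in every WT library, although their SDs overlapped. Ryk had the highest level of the co-receptors (25.4 RPKM), followed by Lrp5 (18 RPKM) and Lrp6 (10.2 RPKM). Lgr4 (25.3 RPKM) stood above Lgr5 (6.43 RPKM) and Lgr6 (2.27 RPKM). Among the antagonists, Sostdc1 had 63.2 ± 17.7 RPKM in the WT libraries and 139 ± 25.3 RPKM in the libraries labelled KO, the highest level of any member in each. Sfrp1 (21.4 RPKM), Dkk3 (20.8 RPKM), Sfrp2 (15.1 RPKM) and Wif1 (12.8 RPKM) came next in WT. Members with little RNA in lip are described by their counts. Wnt1, Wnt8b, Dkk4 and Rspo2 had at most 5 counts in any library, and Wnt2, Wnt7a, Wnt8a, Wnt9b, Dkk1 and Sost were also under the filter. The filter separated Rspo3, which passed with 0.960 to 1.98 CPM, from Wnt2, which did not with 0.425 to 1.44 CPM.

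**Figure D1:**
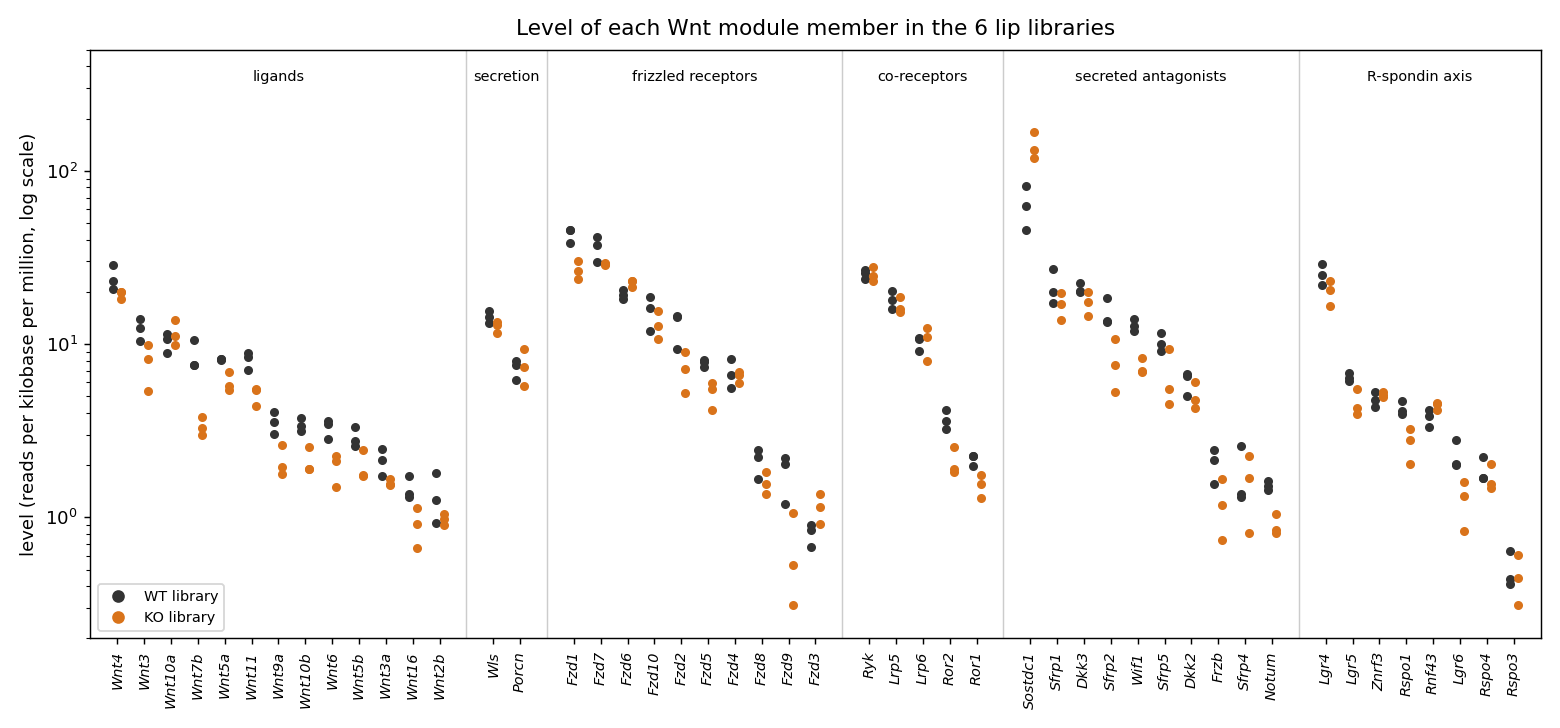
Levels of the 48 members that passed the filter, in RPKM on a log axis, grouped by role. Each point is 1 of the 6 libraries, coloured by its label. Sostdc1 is the highest member in both groups, at a mean of 63.2 RPKM in WT and 139 RPKM in KO.

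Of the 48 members, 5 were lower in the libraries labelled KO (Wnt7b, Wnt11, Fzd1, Ror2 and Wif1) and 1 was higher (Sostdc1) by edgeR's quasi-likelihood test at an adjusted p under 0.05. The other 42 did not pass. Over all genes tested, 2.09% were called lower and 4.38% higher. The exact test of edgeR called 13 members lower and 1 higher, against 7.15% and 7.76% of all genes, and DESeq2 called 16 lower and 1 higher, against 7.61% and 9.5% of all genes. The log2 fold change (KO against WT) was negative in 40 members and positive in 8, while 52% of all genes had a negative value. Its median was -0.43 over the members and -0.02 over all genes. In 25 members all 3 libraries labelled KO lay below all 3 WT libraries, as they did in 18.1% of all genes, and in 4 members (Fzd3, Fzd6, Rnf43 and Sostdc1) they lay above, as in 13.5% of all genes. In the other 19 members the groups overlapped. Leaving out a library changed the count of calls, and only leaving out KO replicate 3 raised it, among members as among all genes. Without KO replicate 3, 20 members were lower and 2 higher, beside 16.2% and 16.9% of all genes. Without any 1 of the other libraries a single member, Wnt7b, was lower. In those fits 18 of 14745 genes (without KO replicate 2) to 62 of 14792 genes (without WT replicate 2) were lower.

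**Figure D2:**
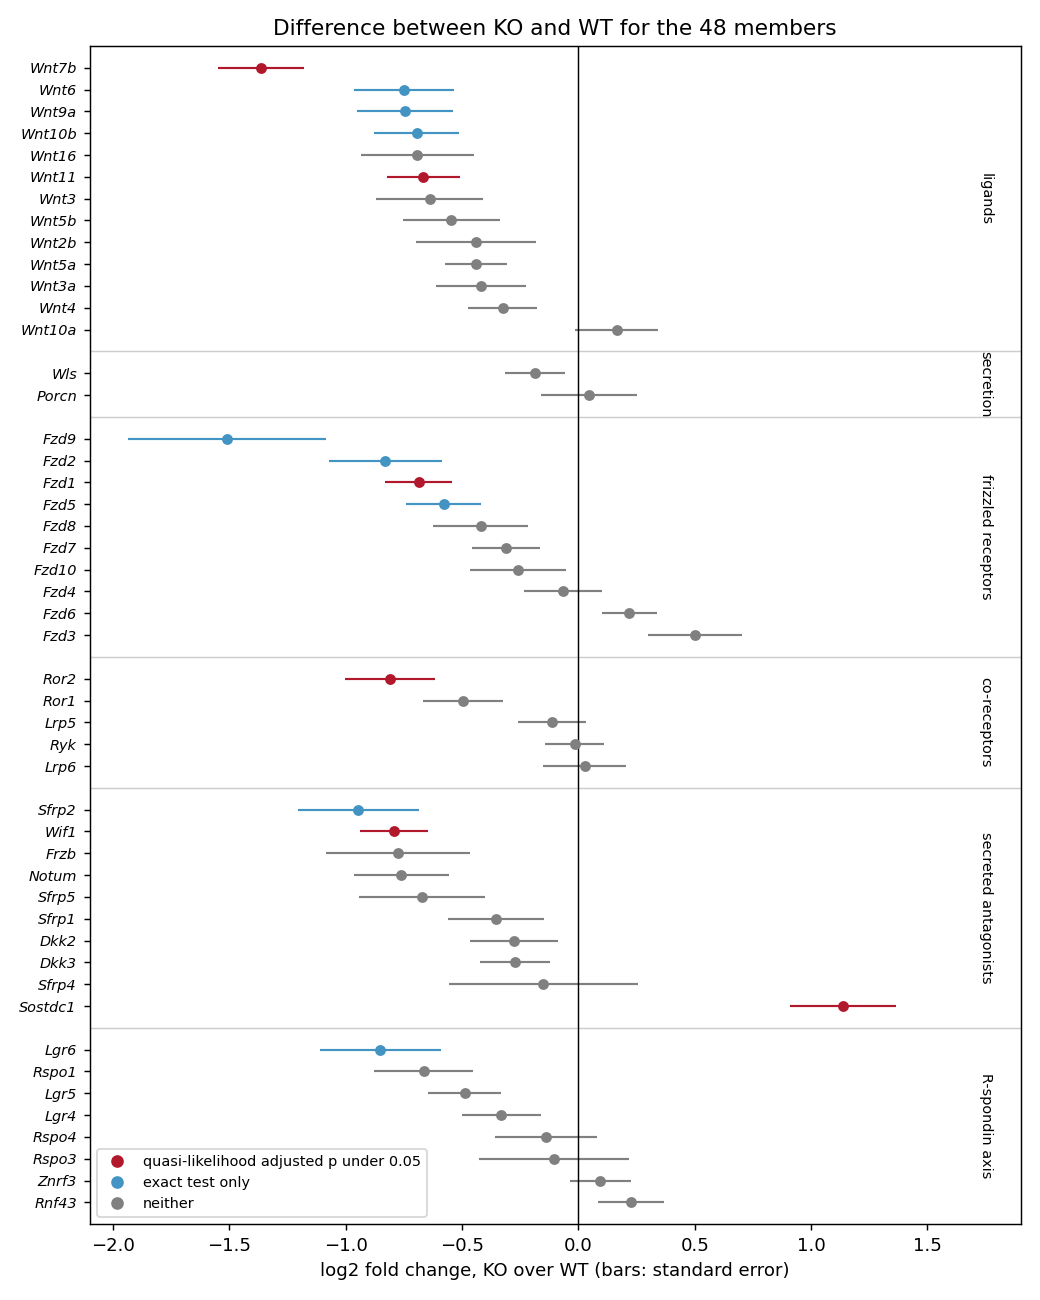
Log2 fold change of each of the 48 members, libraries labelled KO against WT, grouped by role, with bars of 1 standard error from the quasi-likelihood fit. Red points are the 6 members called by the quasi-likelihood test, of which 5 lie below 0 and Sostdc1 lies above it. Blue points are members called by the exact test and not by the quasi-likelihood test, and grey points were called by neither.

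Wnt7b and Wnt11 were the ligands called, both lower in the libraries labelled KO. Of the 19 ligands in the file 13 passed the filter, 2 of these were called, and 12 had a negative log2 fold change. Wnt7b, an epidermal ligand that keeps hair follicle stem cells and their descendants growing, had 52.0, 37.0 and 37.0 CPM in WT1, WT2 and WT3, and 14.6, 15.9 and 18.5 CPM in KO1, KO2 and KO3. The highest library labelled KO lay well below the lowest WT library. The quasi-likelihood test gave a log2 fold change of -1.36 ± 0.19 (SE) at an adjusted p of 0.00444, a KO level 0.389 of the WT level. It was called with each of the 6 libraries left out, at log2 fold changes from -1.45 to -1.18 and adjusted p up to 0.0498. Wnt7b lies at chr15:85535437-85582473 on the minus strand (GRCm38) and overlaps AU022754 on the opposite strand. Wnt11, a ligand of the branch that guides cell movement, had 34.8, 29.1 and 36.7 CPM in WT and 18.2, 22.6 and 22.7 CPM in KO. The groups did not overlap, and the log2 fold change was -0.67 ± 0.16 (SE, quasi-likelihood adjusted p = 0.0482). That call held only without KO replicate 3 when libraries were left out, with adjusted p up to 0.203, and it was lost with limma-voom (0.0511), with DESeq2 size factors (0.0578) and with no filter (0.0929). Gm8398 overlaps the gene on the opposite strand.

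The exact test called Wnt6, Wnt9a and Wnt10b as lower where the quasi-likelihood test did not. DESeq2 also called them (Wald test adjusted p = 0.0302, 0.0191 and 0.0138). Wnt10b, an activator of hair follicle growth, had 12.7, 11.5 and 10.7 CPM in WT and 6.45, 6.48 and 8.64 CPM in KO (log2 fold change -0.69, quasi-likelihood adjusted p = 0.0638). Wnt9a had 13.5, 10 and 11.9 CPM in WT and 5.94, 6.51 and 8.69 CPM in KO (-0.74, adjusted p = 0.0708). Wnt6 had 7.91, 6.21 and 7.60 CPM in WT and 3.27, 4.93 and 4.66 CPM in KO (-0.75, adjusted p = 0.0769). In all of these genes the groups stood apart, and in none did the quasi-likelihood test pass. Wnt5a, the ligand most often tied to the branch that does not use beta-catenin, varied little among WT mice (64.3, 64.0 and 63.4 CPM) and had 42.7, 45.1 and 53.7 CPM in KO (log2 fold change -0.44, quasi-likelihood adjusted p = 0.0835). DESeq2's Wald test called Wnt5a lower (adjusted p = 0.0444), and the exact test did not. Wnt10a was the exception among the ligands, with a positive log2 fold change of 0.16 (95% interval -0.24 to 0.57) and overlapping groups. Wnt6 and Wnt10a lie 6.19 kb apart on chromosome 1, so the lower values of Wnt6 were not matched by its neighbour. Wnt3a and Wnt9a are 16.2 kb apart on chromosome 11, and Wnt3a had a log2 fold change of -0.42 (95% interval -0.87 to 0.03).

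The make-up of the ligand reads differed too. Wnt7b took 13.1%, 11.4% and 10.1% of all ligand reads in the WT libraries and 6.29%, 6.38% and 6.47% in the libraries labelled KO. The groups did not overlap in this share, so Wnt7b was lower relative to the other ligands as well as relative to the library. Summed over the 19 ligands, WT libraries had 396, 325 and 365 CPM and libraries labelled KO had 232, 250 and 286 CPM.

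Of the 10 frizzled receptors, all of which passed the filter, Fzd1 was called lower and none was called higher. Fzd1, a receptor that couples to beta-catenin signalling, had 190, 161 and 190 CPM in WT and 99.5, 111 and 126 CPM in KO. The groups did not overlap, and the log2 fold change was -0.69 ± 0.14 (SE, quasi-likelihood adjusted p = 0.0316). With libraries left out the call held only without KO replicate 3, with adjusted p up to 0.185, and it was lost with no filter (0.0652). Fzd2, Fzd5 and Fzd9 were called by the exact test and by DESeq2 (Wald test adjusted p = 0.0243, 0.0292 and 0.0126), not by the quasi-likelihood test. Fzd2 had 52.2, 34.3 and 52.8 CPM in WT and 19.1, 26.2 and 33.1 CPM in KO (-0.83, quasi-likelihood adjusted p = 0.0787), and its lowest WT library was close to its highest KO library. Fzd5 had 56.0, 51.2 and 54.5 CPM in WT and 28.8, 41.3 and 38.3 CPM in KO (-0.58, adjusted p = 0.0719). Fzd9 is the member nearest to Gtf2ird1, 792 kb from it on chromosome 5. It had 4.68, 2.72 and 5.04 CPM in WT and 0.716, 1.22 and 2.42 CPM in KO. This was the largest fitted decrease of the module (log2 fold change -1.51 ± 0.43, SE, quasi-likelihood adjusted p = 0.0737), at low counts and with a range of -2.05 to -1.15 over the left-out libraries. Fzd3 and Fzd6, which are known for planar polarity in skin and the orientation of hairs, went the other way: Fzd3 had 8.67, 10.8 and 11.6 CPM in WT and 14.6, 17.5 and 11.7 CPM in KO (0.50, adjusted p = 0.146). Fzd6 had 99.3, 87.7 and 92.1 CPM in WT and 111, 111 and 103 CPM in KO (0.22, adjusted p = 0.25). In both, every library labelled KO lay above the WT libraries, by a narrow gap in Fzd3, and neither passed the test.

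Among the co-receptors, Ror2 was called lower while the beta-catenin co-receptors showed no detectable difference. Ror2, a receptor kinase for Wnt5a, had 15.2, 13.7 and 17.7 CPM in WT and 7.73, 8.02 and 10.8 CPM in KO (log2 fold change -0.81 ± 0.19, SE, quasi-likelihood adjusted p = 0.0482). The groups did not overlap, and the call held only without KO replicate 3 among the left-out libraries, with adjusted p up to 0.237. It was lost with DESeq2 size factors (0.0548) and with no filter (0.0692). Ror1, its relative, had 11.4, 13.0 and 13.0 CPM in WT and 10.1, 7.50 and 8.92 CPM in KO (-0.49, adjusted p = 0.109). Lrp6 had a log2 fold change of 0.03 (95% interval -0.39 to 0.44), Ryk of -0.02 (-0.31 to 0.28) and Lrp5 of -0.11 (-0.45 to 0.22). Each of these intervals lay above the value fitted for Ror2, but the 95% interval of Ror2 (-1.25 to -0.36) overlapped those of Lrp6 and Lrp5. The sign of Lrp6 and Ryk turned under other scalings, to -0.03 for Lrp6 with upper-quartile factors and to 0.01 for Ryk with DESeq2 size factors. Whether the difference in Ror2 exceeded that in Lrp5 or Lrp6 was not tested. Porcn, the enzyme that attaches the lipid to Wnt proteins, and Wls, the carrier that takes them to the cell surface, did not pass either, with log2 fold changes of 0.05 (-0.43 to 0.52) and -0.19 (-0.48 to 0.11). Porcn turned to -0.02 with upper-quartile factors.

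Secreted antagonists differed in opposite directions. Of 13 in the file 10 passed the filter, with 1 called lower, 1 called higher and 9 with a negative log2 fold change. Wif1, which binds Wnt proteins outside the cell, had 29, 30.7 and 33.8 CPM in WT and 16.8, 17.0 and 20.2 CPM in KO (log2 fold change -0.79 ± 0.15, SE, quasi-likelihood adjusted p = 0.0192). The groups were separated by more than the spread within either. The call held only without KO replicate 3 among the left-out libraries, with adjusted p up to 0.159. Sostdc1, which antagonises both BMP and Wnt signals through Lrp5 and Lrp6 and limits the size and number of hair follicles and teeth, had 111, 81.5 and 145 CPM in WT and 210, 235 and 298 CPM in KO. All libraries labelled KO were above all WT libraries (log2 fold change 1.14 ± 0.23, SE, quasi-likelihood adjusted p = 0.0279), a level 2.20 times that of WT. It was called without WT replicate 3, without KO replicate 1 and without KO replicate 3, and not with the other libraries left out, where adjusted p reached 0.121. The log2 fold change stayed between 0.99 and 1.36. Sostdc1 lies at chr12:36314139-36318452 and Wif1 at chr10:121033960-121100650 (GRCm38), and neither overlaps another annotated gene.

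The make-up of the antagonist reads differed in the same direction. Sostdc1 took 27.0%, 22.3% and 34.3% of antagonist reads in WT and 52.4%, 55.0% and 54.6% in KO, with no overlap. The ratio of Sostdc1 to Wif1 reads was 3.84, 2.66 and 4.27 in WT and 12.5, 13.8 and 14.8 in KO. Sostdc1 was higher and Wif1 lower in every library labelled KO, so this ratio had to separate the groups. The share had to separate them too, because the summed reads of the other antagonists were lower in every such library. Summed over all 13 antagonists the groups overlapped (366 to 421 CPM in WT and 402 to 545 CPM in KO), while without Sostdc1 the sums were 302, 284 and 277 CPM in WT and 191, 192 and 247 CPM in KO. Sfrp2, a secreted frizzled-related protein of dermal cells, had 29.3, 28.8 and 39.4 CPM in WT and 11.4, 16.3 and 23.0 CPM in KO (log2 fold change -0.94). It was called by the exact test and by DESeq2 (Wald test adjusted p = 0.0135), not by the quasi-likelihood test (adjusted p = 0.07). Sfrp5, Frzb and Notum had log2 fold changes of -0.67, -0.78 and -0.76 and did not pass the quasi-likelihood test. Notum, which removes the lipid from Wnt proteins, had 3.45, 3.66 and 3.91 CPM in WT and 1.94, 2.04 and 2.51 CPM in KO (quasi-likelihood adjusted p = 0.0666, and 0.0371 by DESeq2's Wald test), with Myadml2os and Notumos on its opposite strand. Sfrp1, Sfrp4, Dkk2 and Dkk3 had log2 fold changes from -0.35 to -0.15.

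**Figure D3:**
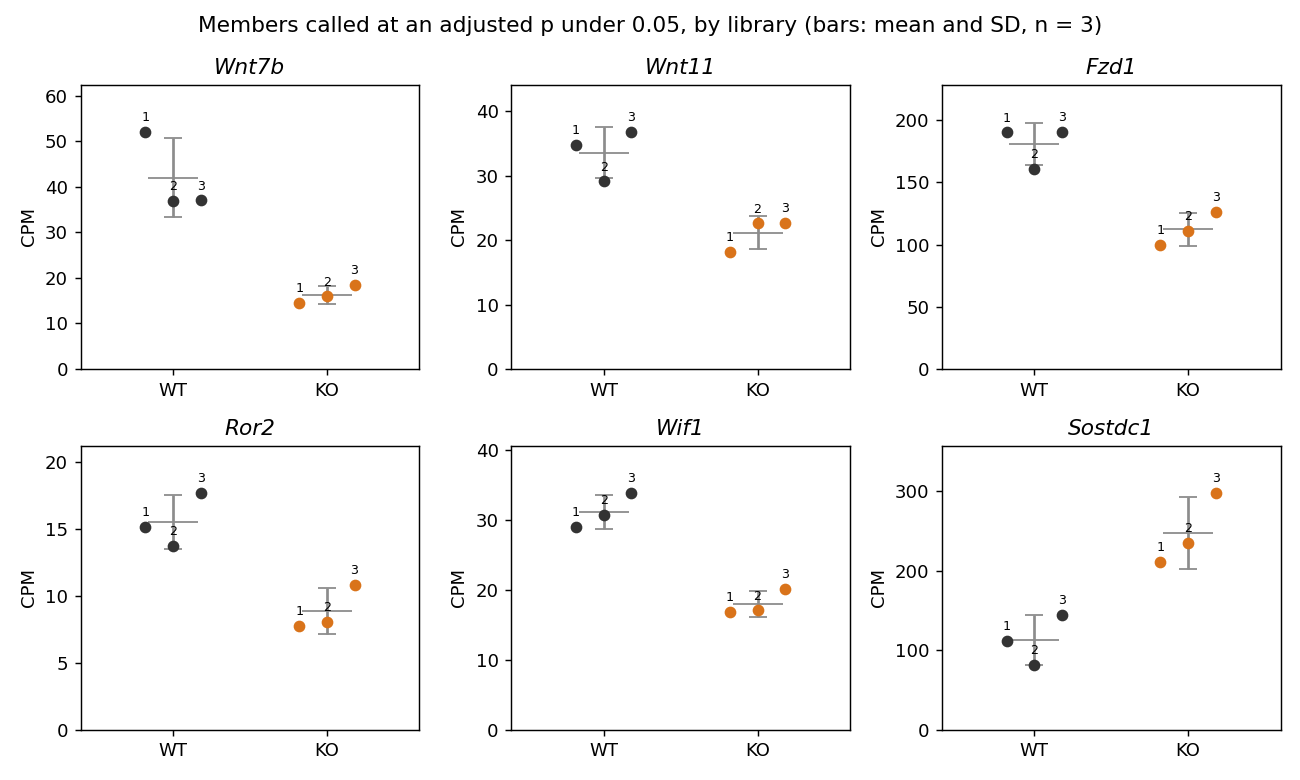
CPM in each library, numbered by replicate, of the 6 members called at an adjusted p under 0.05, with the mean and SD of each group (n = 3). Wnt7b, Wnt11, Fzd1, Ror2 and Wif1 are lower and Sostdc1 is higher in every library labelled KO, with no overlap between groups, and KO replicate 3 is the KO library nearest to WT in the 5 lower members.

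No member of the R-spondin axis was called by the quasi-likelihood test. Lgr6, a marker of stem cells above the follicle bulge, had 13.8, 13.7 and 19.1 CPM in WT and 5.73, 9.14 and 10.9 CPM in KO (log2 fold change -0.85, adjusted p = 0.0836). Lgr6 was called by the exact test and by DESeq2 (Wald test adjusted p = 0.0294). Lgr5, a marker of cycling follicle stem cells, had 62.8, 70.0 and 65.3 CPM in WT and 43.9, 56.6 and 40.7 CPM in KO (-0.49, adjusted p = 0.0915), with A930009A15Rik on its opposite strand. It was called with the trend on gene length removed (quasi-likelihood adjusted p = 0.0455, log2 fold change -0.56). Rspo1 had 9.04, 7.95 and 7.69 CPM in WT and 5.42, 3.95 and 6.26 CPM in KO (-0.66, quasi-likelihood adjusted p = 0.0923, and 0.0473 by DESeq2's Wald test). In these 3 genes every library labelled KO lay below WT. The ubiquitin ligases Znrf3 (0.10, 95% interval -0.21 to 0.40) and Rnf43 (0.23, -0.10 to 0.55) had positive values. Lgr4, Rspo3 and Rspo4 had log2 fold changes of -0.33, -0.10 and -0.14.

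Upstream sequence is shown for the called members that have a promoter in the RefSeq table (GRCm38.p6), because GTF2IRD1 binds DNA, with GGATTA as the core of its reported binding motif. Windows reaching from 250 bases before to 50 bases after each gene start were found for 30 of the 48 members, 34 windows in all. Wnt7b and Sostdc1 have none in the table. Each line gives the 250 bases before the start, in the direction of transcription, with a motif match in capitals.
Fzd1: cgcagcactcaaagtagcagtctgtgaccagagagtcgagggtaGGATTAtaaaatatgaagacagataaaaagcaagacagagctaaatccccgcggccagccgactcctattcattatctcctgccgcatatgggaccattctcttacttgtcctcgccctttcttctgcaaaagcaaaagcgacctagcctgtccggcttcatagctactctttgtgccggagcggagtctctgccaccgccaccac
Wnt11: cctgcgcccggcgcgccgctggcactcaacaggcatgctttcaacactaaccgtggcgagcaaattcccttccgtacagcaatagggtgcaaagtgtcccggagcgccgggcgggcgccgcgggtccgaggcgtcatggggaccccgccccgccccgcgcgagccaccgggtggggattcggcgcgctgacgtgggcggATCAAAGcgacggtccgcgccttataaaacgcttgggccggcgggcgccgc
Wif1: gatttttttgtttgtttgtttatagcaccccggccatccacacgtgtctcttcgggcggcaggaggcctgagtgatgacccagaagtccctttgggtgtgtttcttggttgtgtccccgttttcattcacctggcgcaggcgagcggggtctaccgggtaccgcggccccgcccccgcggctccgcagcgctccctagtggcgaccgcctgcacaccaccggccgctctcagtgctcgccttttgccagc
Ror2: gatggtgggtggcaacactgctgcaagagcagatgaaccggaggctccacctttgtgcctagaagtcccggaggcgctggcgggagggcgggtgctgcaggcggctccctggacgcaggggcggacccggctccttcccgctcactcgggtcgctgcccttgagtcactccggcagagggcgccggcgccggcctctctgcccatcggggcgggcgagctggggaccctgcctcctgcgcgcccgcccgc
These are chr5:4758217-4758466 (minus strand) for Fzd1, chr7:98834862-98835111 (plus strand) for Wnt11, chr10:121033754-121034003 (plus strand) for Wif1 and chr13:53286125-53286374 (minus strand) for Ror2. The capitals in Fzd1 are GGATTA, 206 bases before the start, and those in Wnt11 are the reverse complement of CTTTGAT, a form of the TCF/LEF core searched after the data were seen, 51 bases before the start. A second start of Wnt11, further into the gene, has GGATTA 229 bases before it and its reverse complement just after it. On either strand, GGATTA was in 4 of the 34 member windows (Fzd1, Rnf43, Sfrp2 and Wnt11), and in 7.06% of all 32851 windows. The TCF/LEF core CTTTGAA was in 0 member windows and in 5.14% of all windows. CTTTGTT was in 2 (Fzd7 and Wnt3) and in 5.85%, CTTTGAT in 2 (Wnt11 and Wnt5b) and in 3.73%, and CTTTGTA in 0 and in 3.63%. The TCF/LEF forms differ only after a shared start, and no matches overlapped in the windows of the called members. Members were rich in G and C over the 250 bases, taking the median window of each gene. The median was 65.2% over the 30 members with a window and 52.4% over all 27025 genes with one. A match describes these letters only.

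Other genes of the Wnt pathway, 64 in a list of surface modulators, cytoplasmic transducers, nuclear partners, feedback and target genes and planar polarity genes, were read in the same fit. Of the 62 that passed the filter, 4 were called lower and 4 higher, beside 2.09% and 4.38% of all genes, and the median log2 fold change was -0.17. Lef1, the nuclear partner of beta-catenin in the hair shaft precursors, had 26.5, 23.0 and 31.3 CPM in WT and 10.1, 13.8 and 16.9 CPM in KO (-0.98, quasi-likelihood adjusted p = 0.0387). Reck (-0.83, adjusted p = 0.0365), a partner of Wnt7 ligands at the receptor, and Tspan12 (-0.77, adjusted p = 0.0381), a partner of Fzd4, were also lower, as was Bambi (-0.55, adjusted p = 0.0427), a pseudoreceptor for TGF-beta family signals. Daam1, a formin that links Wnt receptors to actin, had 126, 128 and 122 CPM in WT and 476, 433 and 294 CPM in KO (1.68, adjusted p = 0.0018). Trabd2b (1.01, adjusted p = 0.00987), a membrane protease that inactivates Wnt proteins, Pygo1 (0.85, adjusted p = 0.0153), a beta-catenin co-factor, and Fosl1 (1.38, adjusted p = 0.00895), an AP-1 subunit, were higher. In all 8 the groups did not overlap. The 4 lower calls held only without KO replicate 3 among the left-out libraries. Of the higher genes, Daam1 was called in all 6 such fits, Fosl1 in 5 (adjusted p up to 0.0531), Trabd2b in 4 (up to 0.0674) and Pygo1 in 2 (up to 0.0889, called without WT replicate 2 and without KO replicate 3). On the opposite strand, Lef1 overlaps Gm43352, Tspan12 overlaps Gm30270, Daam1 overlaps Gm7985, Fosl1 overlaps Ccdc85b, Axin2 overlaps Gm11670, and Ctnnb1 overlaps 4930593C16Rik and Ulk4. Axin2, a feedback gene widely used to read beta-catenin signalling, had 30.8, 29.8 and 33.9 CPM in WT and 21.7, 32.8 and 32.7 CPM in KO (-0.11, 95% interval -0.54 to 0.31), with overlapping groups. Nkd1, another feedback gene, had a log2 fold change of -0.76 (adjusted p = 0.0998) and Ctnnb1, which encodes beta-catenin, of 0.30 (adjusted p = 0.277).

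Some markers of hair and of muscle were called lower in the same libraries, where 2.09% of all genes were called lower and 4.38% higher. Of 17 hair shaft and inner root sheath markers listed 16 passed the filter. Of these, 2 were called lower (Hoxc13 and Padi3), and all 16 had a negative log2 fold change (median -0.58). Their sum was 10591, 11090 and 13555 CPM in WT and 6402, 8828 and 8941 CPM in KO. Of 13 skeletal muscle markers 3 were called lower (Tnnt3, Tnni2 and Pvalb), and all 13 had a negative log2 fold change (median -1.01). The sum of the list was 20084, 15149 and 19186 CPM in WT and 7402, 7737 and 12000 CPM in KO. None of 12 dermal fibroblast markers was called, though 10 had a negative log2 fold change (median of the list -0.49). Their sum was 7157, 6948 and 9165 CPM in WT and 3098, 3890 and 7319 CPM in KO, so that KO replicate 3 reached the WT range. Suprabasal keratinocyte markers had a median log2 fold change of 0.52, with 1 of 10 called higher (Ivl), and wound keratinocyte markers a median of 1.48, with 2 of 7 called higher (Krt16 and Sprr1b). Basal keratinocyte markers had a median of 0.03, with Dst called higher. Sebaceous gland markers had a median of -0.35 with 1 of 6 called higher (Scd3), and none was called among 7 dermal papilla (-0.24), 6 endothelial (-0.22) and 6 leukocyte markers (0.07). The part of these tissue shares in the Wnt results was not tested.

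Setting each member against the reads of a marker list, a comparison chosen after the values had been seen, changed which members stood apart. Per hair marker reads, 5 of the 48 members had all libraries labelled KO below WT and 9 had them above, as did 1.31% and 42.9% of all genes. Per fibroblast marker reads these numbers were 1 and 7 (0.733% and 24% of all genes), and per muscle marker reads 0 and 20 (0.22% and 68.2%). Wnt7b remained lower per 1000 hair marker reads, with 4.91, 3.33 and 2.73 in WT and 2.28, 1.81 and 2.07 in KO. The other members below WT on this scale (Wnt6, Ror2, Sfrp2 and Lgr6) were nearly tied between groups. The lowest WT and highest KO values were 0.5597 and 0.5586 for Wnt6 and 1.238 and 1.212 for Ror2. For Sfrp2 they were 2.599 and 2.567, and for Lgr6 1.238 and 1.222. Wnt7b and Ror2 overlapped between groups per fibroblast marker reads and per muscle marker reads. Per 1000 fibroblast marker reads Wnt7b had 7.27, 5.32 and 4.04 in WT and 4.71, 4.10 and 2.52 in KO. Wnt11, Fzd1 and Wif1 overlapped on all 3 scales. Of the 13 ligands, 2 had all libraries labelled KO below WT per hair marker reads, 0 per fibroblast and 0 per muscle marker reads. These 2 were Wnt7b and, by the near tie above, Wnt6. Sostdc1 stood above WT on all 3 scales, with 10.5, 7.35 and 10.7 per 1000 hair marker reads in WT and 32.9, 26.6 and 33.3 in KO. Hair and muscle marker sums were lower in every library labelled KO, so a member above WT in CPM had to stay above on these scales. Lists with higher sums in KO, such as suprabasal keratinocyte markers (20925 to 25270 CPM in WT and 31743 to 48431 CPM in KO), were not used as a scale.

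Each library was also described by the median of the members. This median, over the 48 members, of the log2 level relative to the WT mean was 0.03, -0.14 and 0.06 in WT1, WT2 and WT3 and -0.52, -0.40 and -0.34 in KO1, KO2 and KO3. KO3 was the library labelled KO nearest to the WT mean in 28 of the 48 members, beside 56.8% of all genes. WT2 was the lowest WT library by this median, but it stayed above all libraries labelled KO.

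**Figure D4:**
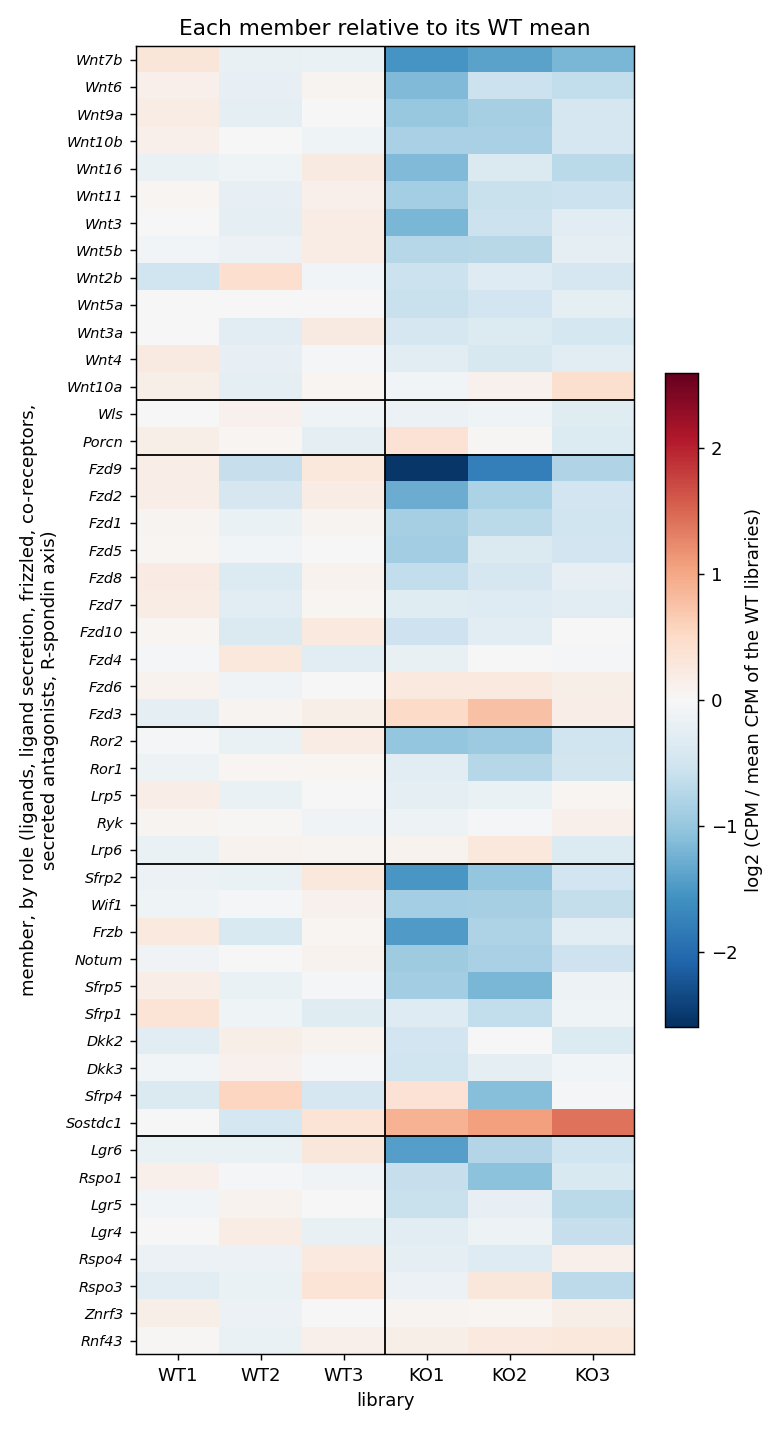
Log2 of the CPM of each of the 48 members in each library over its mean CPM in the WT libraries, with roles separated by lines. Blue is below and red above the WT mean. Wnt7b, Wif1 and Fzd1 are blue in every library labelled KO, Fzd9 is darkest in KO1, and Sostdc1 is red in all of these libraries.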

How the data were processed

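RNA-Seq of top lip tissue from 3 WT and 3 KO mice was analysed from the read counts per gene that the authors deposited, whole numbers without normalization. Per the labels, the submitters' processing used TopHat2 2.0.8 and Bowtie2 2.1.0 on GRCm38 and HTSeq for counting. Every library entered the fits (6 in all). The table had 0 columns without a sample and 0 entries without a gene name. Groups came from the sample labels.

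Genes at 1 CPM or more in 3 or more libraries were tested with edgeR 4.0.16 in R 4.3.3 (TMM factors, estimateDisp, glmQLFit with legacy=FALSE, glmQLFTest), without covariates. Adjusted p-values are Benjamini-Hochberg values over all 15009 genes, with a threshold of 0.05. The study's own test, edgeR's exact test, was an alternative. The procedure was tested on simulated data. CPM use the TMM factors. RPKM use exon lengths from GENCODE annotation of GRCm38, which gave a length for 94.9% of tested genes. The limit of 3 counts and the depth per library cover counting error only.

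Alternatives were edgeR's exact test, DESeq2 1.42.0, limma-voom (limma 3.58.1), the legacy and robust quasi-likelihood fits, DESeq2 size factors, library size alone, upper-quartile factors, no filter, at least 10 counts in every library, removal of a trend on gene length (lowess span 0.3), a replicate block, an adjusted p under 0.1 and each library left out. Values per marker reads and the motifs CTTTGAT and CTTTGTA were added after the data were seen.

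The members, gene lists and tests were chosen with earlier results of these data known. Named are members called by either edgeR test, the most abundant of each role and the neighbour of Gtf2ird1, called pathway and marker genes, and Ctnnb1, Axin2, Lef1 and Nkd1. Other members are named as role, direction or position required, after their values were seen. Figures were drawn with matplotlib 3.10.9 in Python 3.11.15.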

Additional observations from a re-analysis of the deposited data

How the results depend on the processing

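The number of members called lower in the libraries labelled KO, 5 by the quasi-likelihood test, was 13 with edgeR's exact test, 16 with DESeq2's Wald test, 3 with DESeq2 size factors, 2 with no filter, 3 with at least 10 counts in every library and 17 at an adjusted p under 0.1. With each library left out it ranged from 1 to 20, and the number called higher from 0 to 2. Over all genes, 314 of 15009 were called lower in the main fit, 1073 with the exact test and 1142 with DESeq2's Wald test. This was 207 with DESeq2 size factors, 251 with library size alone, 204 of 26814 with no filter and 204 of 15265 with at least 10 counts. With a library left out, 18 (without KO replicate 2) to 2395 genes (without KO replicate 3) were lower, and 208 to 2496 were higher in these fits. The lowest counts of higher members came without WT replicate 1, WT replicate 2 or KO replicate 2, and both highest counts without KO replicate 3. The other pathway genes called lower, 4, were 11 with the exact test, 10 with DESeq2's Wald test, 2 with library size alone, 2 with no filter, 13 at an adjusted p under 0.1 and 0 to 19 with a library left out, and those called higher, 4, ranged from 1 (without WT replicate 3) to 8 (without KO replicate 3). The cause was not tested. The median log2 fold change of the members kept its sign under every alternative run, from -0.48 with upper-quartile factors to -0.33 without KO replicate 1. Upper-quartile factors moved the median of all genes to -0.08. Wnt11 lost its call with limma-voom, DESeq2 size factors, library size alone, no filter, the stricter filter and the length trend removed, Ror2 with DESeq2 size factors, no filter, the stricter filter and the length trend removed, and Fzd1 with no filter. Wnt7b, Wif1 and Sostdc1 kept theirs in each of these fits. Lgr5 gained a call with the length trend removed (adjusted p = 0.0455).

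The labels do not say whether the replicate numbers pair the mice, and correlations with 3 libraries in each group cannot decide it. Deviations from the group means correlated at -0.19, 0.31 and 0.33 between same-numbered libraries, and WT2 correlated more with KO1 (0.42) than with KO2. With a replicate block 5 members, 2 other pathway genes and 217 of all 15009 genes were lower. Wnt11, Tspan12, Bambi, Dst, Tnnt3 and Tnni2 lost and Sfrp2 gained a call.

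Small values changed sign. Lrp6 went from 0.03 to -0.035 with upper-quartile factors and to -0.0837 with the length trend removed, and Porcn from 0.05 to -0.0152 with upper-quartile factors. Ryk went from -0.02 to 0.0122 with DESeq2's Wald test or size factors, to 0.0145 with the length trend removed and to 0.0366 with no filter. Krt5 went from -0.04 to 0.0119 with no filter and to 0.0803 with the length trend removed. With libraries left out, log2 fold changes ranged between -0.0575 and 0.19 for Lrp6, -0.0877 and 0.102 for Ryk, -0.0858 and 0.21 for Porcn, -0.11 and 0.0831 for Krt5, -0.19 and 0.15 for Fzd4, -0.20 and 0.00579 for Lrp5, -0.44 and 0.30 for Sfrp4, -0.33 and 0.11 for Rspo3, -0.29 and 0.0104 for Rspo4, and -0.20 and 0.12 for Axin2.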
